A study of Drosophila melanogaster with 15 samples.

Results

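The wing imaginal disc of the Drosophila larva was compared here with 4 other larval tissues. The wing disc is the sac of epithelium that forms the adult wing and the dorsal thorax, and it was represented by the 3 of 15 arrays whose titles carried the abbreviation for that tissue. The other arrays held epidermis with attached muscle, salivary gland, midgut and central nervous system, with 3 arrays each. Every array set 1 dissected tissue, labelled with Cy5, against whole animals, labelled with Cy3, and all samples came from Canton S, a wild-type strain, at about 18 hours before puparium formation. The 3 samples of a tissue were independent, no dyes were swapped, and each value is the log2 ratio of tissue over whole animal after centring the array on its median. A log2 difference of 1 is a 2-fold difference.

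The disc grows by cell division through larval life as a folded single-layered epithelium, and it differentiates only after the rise of the steroid hormone ecdysone that starts metamorphosis. It is patterned by compartments: Hedgehog signalling crosses the boundary between posterior and anterior cells, BMP and Wnt ligands spread from stripes of cells, Notch signalling sets up the edge of the wing, and the Fat and Hippo pathways tie growth to cell contacts. A dissected disc can also carry myoblasts beneath the notum, tracheal branches and attached blood or fat body cells. Most cells of the larval epidermis, salivary gland and midgut stop dividing and enlarge by endoreplication, whereas the larval nervous system still holds dividing neuroblasts.

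The arrays with wing disc RNA measured 12703, 11570 and 8409 rows (replicates 1, 2 and 3), within the range of 7747 to 13505 rows over all arrays. The median SD between the wing disc arrays was 0.288 log2, against 0.26 to 0.373 in the other tissues. Of 13128 features, which are genes averaged over their rows or rows without a single gene, 8432 were measured on at least 2 arrays in every tissue and were tested, 6624 of them with a gene name. Differences were tested with limma, fitting 1 mean per tissue to the 15 arrays together, and "past the test" means a Benjamini-Hochberg adjusted p under 0.05. Errors given with differences are standard errors (SE) of that fit, and errors given with tissue means are SDs over n = 3 arrays unless another n is stated. In RNA of a whole tissue, fewer cells of a type and less RNA per cell cannot be told apart.

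The wing disc differed from the equally weighted mean of the other 4 tissues in 1654 features (19.6% of those tested), of which 793 were higher (9.4%) and 861 lower (10.2%). Such a difference can come from a single other tissue, so each tissue was also compared with the disc on its own. The midgut was farthest from the disc, with 2451 features past the test (29.1%), 1207 higher in the disc (14.3%) and 1244 lower (14.8%). The salivary gland followed with 1737 (20.6%), 963 higher (11.4%) and 774 lower (9.18%). Epidermis with muscle differed in 1110 features (13.2%), 424 higher (5.03%) and 686 lower (8.14%). The central nervous system was closest, with 499 features past the test (5.92%), 207 higher in the disc (2.45%) and 292 lower (3.46%). The share of calls that were higher against epidermis was 38.2%, and 52% with arrays centred on features measured on all 15 arrays. These comparisons share the wing disc arrays and are not independent of each other. The counts moved when single arrays were left out, which also left fewer of the 8432 features to test. Without wing disc replicate 2, 6790 were tested. Of these, 1012 differed from the mean of the other 4, 738 from epidermis and 302 from the central nervous system. Other arrays that moved a count by more than 1.5 times were epidermis replicate 2 and central nervous system replicates 2 and 3. Without epidermis replicate 2, 734 of 6541 features differed from epidermis. Without central nervous system replicate 2 or 3, 304 of 7350 and 322 of 7839 differed from that tissue. How much of each drop came from fewer features tested was not tested.

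**Figure D1:**
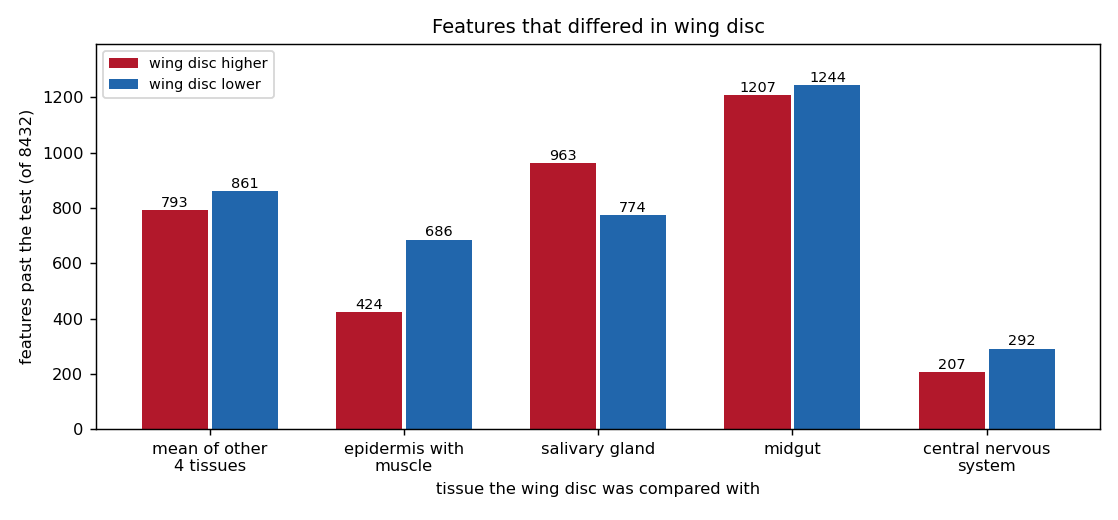
Number of features past the limma test (y axis) higher or lower in wing disc, for the mean of the other 4 tissues and for each tissue (x axis). The bars are tallest against midgut (1207 higher, 1244 lower) and shortest against the central nervous system (207 higher, 292 lower).

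The 3 marker genes of the disc were high on all of its arrays. ImpE2, an ecdysone-inducible gene first found in discs, had log2 ratios of 2.90, 3.32 and 2.46 in wing disc, against tissue means of -0.01 ± 0.74 in epidermis, -0.66 ± 0.865 in salivary gland, -1.03 ± 0.143 in midgut and -1.28 ± 0.463 in central nervous system. No array of another tissue came above 0.83, so the groups did not overlap, and the difference from the mean of the other 4 was log2 3.64 (SE 0.33, adjusted p = 6.39e-06). Expression of ci, the transcription factor through which Hedgehog signalling acts, was 1.48, 1.51 and 1.20 in wing disc, while the highest value elsewhere was 0.75, on an epidermis array. The ci difference was log2 2.86 (SE 0.291, adjusted p = 1.1e-05), with the lowest levels in midgut at -3.50 ± 0.475. PCNA, the sliding clamp of DNA polymerase, stood at 2.01, 1.77 and 2.15 in wing disc and at 1.49, 1.24 and 1.27 in the central nervous system. The disc arrays lay above all others for PCNA too, yet the difference from the central nervous system, log2 0.65, did not pass the test (SE 0.31, adjusted p = 0.293).

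Against each of the other 4 tissues on its own, 48 features (0.569%) were at least log2 1 higher in wing disc with every one of the 4 tests passed, and 34 of them had a gene name. On all 34, the disc arrays lay above every other array, as they did for 281 of all features tested (3.33%). The 34 were chosen by their differences on these same arrays, so the lack of overlap largely follows from that choice. After ImpE2, the greatest margin over the nearest tissue was that of CG15905, a gene known by its number, with 3.82, 4.04 and 2.40 in wing disc, against 1.88, -0.14 and 0.84 in epidermis, its nearest tissue. The sulfotransferase gene St2 had 1.92, 2.99 and 2.0 in wing disc, and its 12 values elsewhere ran from -0.84 to 1.22. For nw, named after the narrow wings of its mutants, the disc arrays read 0.83, 0.77 and 2.33, and all values elsewhere lay between -2.55 and 0.49. Replicate 3 stood well above the other two for nw, and even the lower disc values stayed above every other array. The zinc finger gene bowl, of the odd-skipped family, had 1.29, 1.63 and 2.21 in wing disc, with the greatest difference from the central nervous system (log2 3.0, SE 0.349, adjusted p = 6.84e-05). The growth factor gene miple2, a fly relative of midkine and pleiotrophin, was steady at 1.10, 1.16 and 1.38 in wing disc and below 0 on all 12 other arrays. CG4382, CG7102, CG14223 and wrm1 completed the genes with the greatest margins, with smallest pair differences of log2 2.01, 1.70, 1.45 and 1.43. CG4382 rested on 2 disc arrays, at 2.40 and 1.64. Without each array in turn, between 35 and 48 features were at least log2 1 above every other tissue, with 6541 to 8294 features tested.

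**Figure D2:**
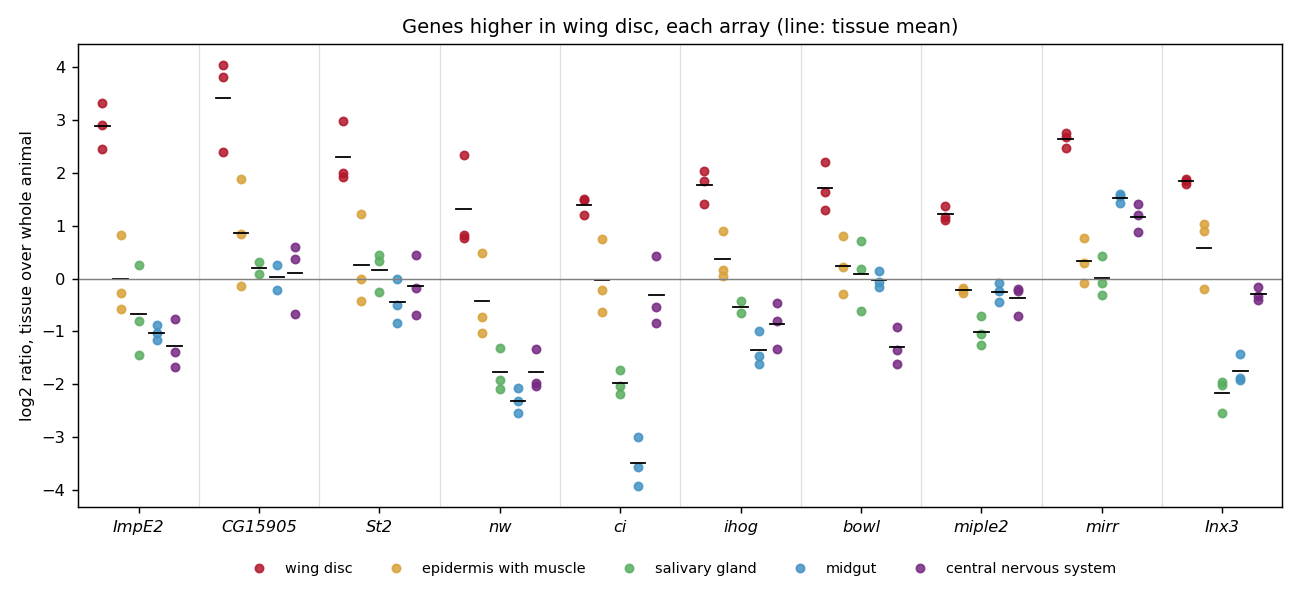
Log2 ratios of tissue over whole animal (y axis) for 10 genes higher in wing disc (x axis); points are arrays, coloured by tissue with wing disc at the left of each gene, and lines are tissue means. For each of the 10 genes the 3 wing disc arrays lie above all arrays of the other tissues, with the narrowest gaps for nw and ci.

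The genes that stood farthest above the other 4 tissues on average were partly the same and partly genes that 1 other tissue shared with the disc. Inx3, which encodes a gap junction subunit, was nearly constant at 1.85, 1.88 and 1.79 in wing disc, against 0.58 ± 0.671 in epidermis, -2.17 ± 0.321 in salivary gland, -1.74 ± 0.274 in midgut and -0.30 ± 0.127 in central nervous system (difference from their mean log2 2.75, SE 0.228, adjusted p = 3.01e-06). CG7675 differed by 2.56 (SE 0.2), with 1.67, 1.68 and 1.56 in wing disc and tissue means of -1.23 or less in salivary gland, midgut and central nervous system. Duox, a dual oxidase that makes hydrogen peroxide, differed by 2.24 (SE 0.281), but its disc values of 1.23, 1.28 and 1.83 overlapped the epidermis values of 0.05, 1.33 and 1.57. The pair difference from epidermis for Duox was log2 0.47 and did not pass (adjusted p = 0.482). The homeobox and zinc finger gene zfh2 likewise differed from the mean by 2.42 (SE 0.24) while its 1.45, 1.54 and 2.16 in wing disc overlapped 1.96, 1.16 and 1.41 in the central nervous system.

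Among Hedgehog pathway genes, 4 of 11 tested were higher in wing disc than the mean of the other 4 tissues and 0 were lower, against 9.4% and 10.2% of all features. The list's median difference was log2 0.44, against -0.05 over all features tested. The gene lists were chosen with earlier results on these arrays in view, so their counts are descriptions and not independent evidence. Besides ci, the co-receptor gene ihog was high, with 1.41, 2.04 and 1.85 in wing disc, at most 0.9 on any other array, and a difference of log2 2.36 (SE 0.236, adjusted p = 1.37e-05). The signal transducer smo had 0.44, 0.90 and 1.23 in wing disc and 0.29 or less elsewhere (log2 1.5, SE 0.27, adjusted p = 0.00112), without passing against epidermis or the central nervous system alone. The acyltransferase gene rasp, needed to make active Hedgehog, was higher by 0.74 (SE 0.209, adjusted p = 0.0205) with overlapping arrays, a call lost without wing disc replicate 1 (adjusted p = 0.111) or 2 (0.0835). The other 7 members tested lay between -0.34 (slmb) and 0.50 (disp). The ligand gene hh was measured on 2 disc arrays, at 1.36 and 0.78, and on 1 epidermis array at -0.18, and engrailed (en) on 2 disc arrays at -0.21 and -0.01, so both stayed outside the test.

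Of the Notch pathway genes tested, 9 of 18 were higher in wing disc and 0 were lower, with a median difference of log2 0.67. The ligand gene Delta had 1.54, 1.5 and 2.15 in wing disc, against 0.84 ± 0.209 in the central nervous system and means between -0.33 and -1.0 in the other tissues (log2 2.01, SE 0.249, adjusted p = 5.09e-05). O-fut1, whose product adds fucose to Notch, had 1.02, 0.88 and 1.62 in wing disc and no value above 0.1 elsewhere (log2 1.98, SE 0.241). The Delta values of the disc did not overlap those of the nervous system, but the pair difference of log2 0.89 did not pass (adjusted p = 0.135), whereas O-fut1 passed in all 4 pairs. Genes of the Enhancer of split complex, which Notch activates, divided. E(spl)m3-HLH stood at 1.61, 1.61 and 1.93 in wing disc and between -0.05 and 0.60 on every other array (log2 1.48, SE 0.15, adjusted p = 1.08e-05). E(spl)malpha-BFM had 2.04, 1.81 and 1.13 in wing disc and 0.70 or less elsewhere (log2 1.61, SE 0.234, adjusted p = 0.00019). E(spl)m7-HLH and E(spl)mbeta-HLH were higher by 1.54 (SE 0.229) and 1.29 (SE 0.235) against the mean, and E(spl)m7-HLH did not differ past the test from the central nervous system (log2 0.25, adjusted p = 0.716). E(spl)m5-HLH and E(spl)m6-BFM, named after their values were seen, had differences of -0.46 and -0.45 that did not pass. These genes are related in sequence, and how far their array rows share signal is not given in the sources used here. Against single tissues, 8 Notch pathway genes were higher in the disc than in epidermis (5.03% of all features), 10 than in salivary gland (11.4%), 11 than in midgut (14.3%) and 3 than in the central nervous system (2.45%).

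Among BMP pathway genes, 4 of 11 were higher than the mean of the other 4 tissues and 0 lower, with a median of log2 0.63. The shares of all features were 9.4% and 10.2%. Against epidermis, salivary gland, midgut and central nervous system, 1, 4, 3 and 2 were higher and 0, 1, 0 and 0 lower. The shares of all features there were 5.03%, 11.4%, 14.3% and 2.45% higher and 8.14%, 9.18%, 14.8% and 3.46% lower. The target genes salr and bi, both transcription factors, were higher by 1.23 (SE 0.342, adjusted p = 0.0216) and 1.14 (SE 0.223, adjusted p = 0.00231), the receptor gene put by 0.93 (SE 0.267, adjusted p = 0.0224) and cv by 0.60 (SE 0.159, adjusted p = 0.0155). These calls leaned on single arrays, although leaving an array out also left fewer genes to test. Without wing disc replicate 1, 1 of 9 passed, and without wing disc replicate 2, 0 of 10. Without midgut replicate 1 or without midgut replicate 2, 2 of 9 passed, and 1 of the 7 measured on all 15 arrays did. In the Wnt pathway, 1 of 5 genes tested passed. With so few genes, 1 call is near the share of all features. It was the ligand gene Wnt6, with 0.74, 1.08 and 0.68 in wing disc and no value above 0.36 elsewhere (log2 0.86, SE 0.193, adjusted p = 0.00552). In the EGFR pathway, 2 of 7 were higher and 0 lower. Of these, kek1, which encodes a transmembrane inhibitor of the receptor, was higher by 1.53 (SE 0.263, adjusted p = 0.00078) and the ligand gene spi by 0.95 (SE 0.23, adjusted p = 0.00798, but 0.0733 without wing disc replicate 3), while the spi difference from the central nervous system was log2 -0.76 and did not pass (adjusted p = 0.172).

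The Fat and Hippo pathway list gave 3 higher and 1 lower of 12, against 9.4% and 10.2% of all features. The 1 lower gene is near that share. Against epidermis, salivary gland, midgut and central nervous system, 1, 3, 3 and 2 were higher and 0, 1, 3 and 0 lower. The shares of all features there were 5.03%, 11.4%, 14.3% and 2.45% higher and 8.14%, 9.18%, 14.8% and 3.46% lower. Dlish, whose product binds the myosin Dachs, had 1.56, 1.47 and 1.69 in wing disc, against 0.72 or less on all other arrays (log2 2.55, SE 0.259, adjusted p = 1.46e-05). The gene lft, whose product binds the intracellular parts of the cadherins Fat and Dachsous, was higher by 1.92 (SE 0.226, n = 2 disc arrays), and the cadherin gene ds by 0.73 (SE 0.187, adjusted p = 0.0149, but 0.0963 without wing disc replicate 2). Wbp2, known for binding the co-activator Yorkie, was lower, with -2.81, -1.87 and -2.07 in wing disc and no value below -1.72 elsewhere (log2 -1.76, SE 0.426, adjusted p = 0.00813, but 0.0553 without wing disc replicate 1). Of 4 planar polarity genes tested, 0 passed against the mean, which is near the shares of all features.

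Transcription factor genes that pattern the disc were measured unevenly: of 40 listed, 30 had values and 18 were tested, of which 6 were higher and 0 lower, with a median of log2 0.45. Without wing disc replicate 1, 3 of the 15 still tested passed, and without wing disc replicate 2, 3 of 16. Of the 4 measured on all 15 arrays, 1 passed. The Iroquois gene mirr had 2.75, 2.68 and 2.47 in wing disc and at most 1.60 elsewhere, on a midgut array, and it passed in all 4 pairs (difference from the mean log2 1.88, SE 0.2, adjusted p = 1.51e-05). Its relative ara was higher by 1.28 (SE 0.321, adjusted p = 0.0135) from 2 disc arrays that lay far apart, at 1.57 and 0.37. The homeobox gene al was higher by 1.11 (SE 0.256, adjusted p = 0.00661), with 1.59, 1.19 and 0.78 in wing disc overlapping a single midgut array at 1.36. The Hox gene Dfd had 0.75 and 0.88 on 2 disc arrays and did not differ past the test (log2 -0.19, SE 0.28, adjusted p = 0.693), and Scr had too few values to be tested. In the list of proneural and bristle genes, 1 of 5 passed. With so few genes, 1 call is near the 9.4% of all features that were higher. The gene was Brd (log2 0.69, SE 0.219, adjusted p = 0.0371). That call was lost with arrays scaled to a common spread (adjusted p = 0.0898), with the replicate number as a block (0.0556), without wing disc replicate 1 (0.0729), 2 (0.166) or 3 (0.0734) and without midgut replicate 2 (0.0544). It was also lost with salivary gland (0.0842) or midgut (0.0895) left out of the mean.

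**Figure D3:**
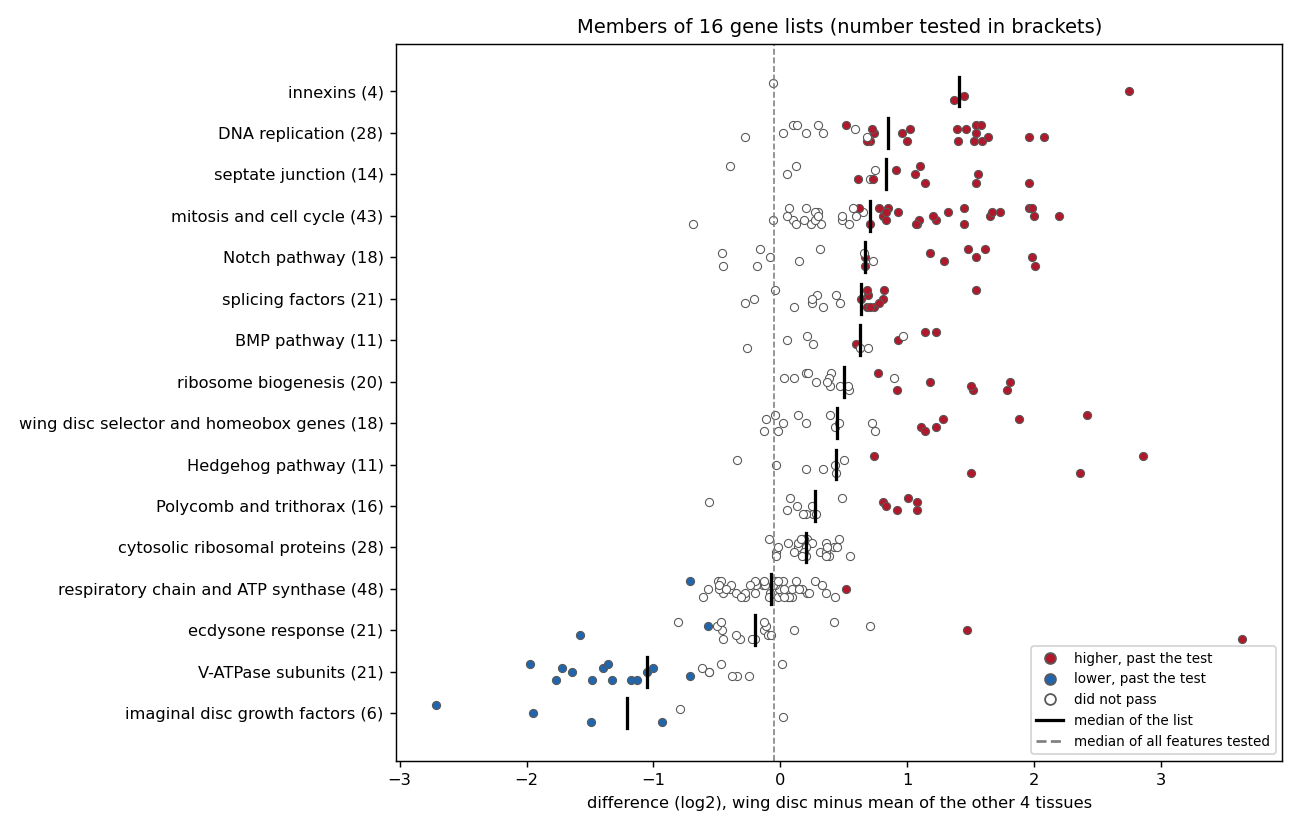
Differences of single genes between wing disc and the mean of the other 4 tissues (x axis, log2) in 16 gene lists (y axis); filled points passed the limma test, black bars are list medians and the dashed line is the median of all features tested (-0.05). Innexin, DNA replication and septate junction genes have the highest medians (1.41, 0.85 and 0.83), and V-ATPase and Idgf genes the lowest (-1.05 and -1.21).

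Genes of DNA replication were higher in 19 of 28 cases and lower in 0, with a median difference of log2 0.85. The helicase gene Mcm3 had 2.30, 2.21 and 2.14 in wing disc, against 1.39 ± 0.292 in the central nervous system, 0.21 ± 0.532 in epidermis, -0.11 ± 0.275 in salivary gland and -0.48 ± 0.309 in midgut. All disc values exceeded all others, and the difference from the mean was log2 1.96 (SE 0.216, adjusted p = 1.95e-05). For Mcm2 and Mcm6, of the same helicase, for RfC4, of the clamp loader, and for RnrL, the large subunit of ribonucleotide reductase, differences were 1.54 to 1.64 (SE 0.189 to 0.252). Replication genes were higher in the disc than in epidermis in 14 of 28 cases, than in salivary gland in 17 and than in midgut in 19, where 5.03%, 11.4% and 14.3% of all features were higher. Against the central nervous system 0 passed in either direction, with a median difference of log2 0.16. Of all features, 2.45% were higher and 3.46% lower in that comparison, so 0 of 28 is close to those shares. The list's median on each array ran from 0.96 to 1.01 in wing disc, against 0.77 to 0.96 in central nervous system samples, and reached at most 0.35 on any other array.

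Mitosis and cell cycle genes followed the same order of tissues, with 23 of 43 higher and 0 lower and a median of log2 0.71. The anaphase regulator fzy had 1.63, 2.03 and 1.77 in wing disc and at most 1.14 elsewhere (log2 2.20, SE 0.264, adjusted p = 3.73e-05). The spindle checkpoint gene Bub3 had 1.62, 1.46 and 1.65 in wing disc and at most 1.35 elsewhere (log2 2.0, SE 0.212). The condensin genes SMC2 and Cap-D2 were higher by 1.98 (SE 0.234) and 1.96 (SE 0.241), Incenp, of the chromosomal passenger complex, by 1.73 (SE 0.358, n = 2 disc arrays) and the anillin gene scra by 1.67 (SE 0.219). SMC2 was as high in the nervous system, at 1.67, 1.71 and 1.22, against 1.60, 1.77 and 1.48 in wing disc. Of the 43 genes, 16 were higher in the disc than in epidermis, 21 than in salivary gland and 25 than in midgut (5.03%, 11.4% and 14.3% of all features), whereas 0 were higher and 1 was lower than in the central nervous system (2.45% and 3.46% of all features). Among the 22 list members measured on all 15 arrays, 13 were higher and 1 was lower. The cell cycle regulators CycE and E2f1, named here after their values were seen, had differences of 0.10 (adjusted p = 0.8) and 0.05 (adjusted p = 0.906).

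**Figure D4:**
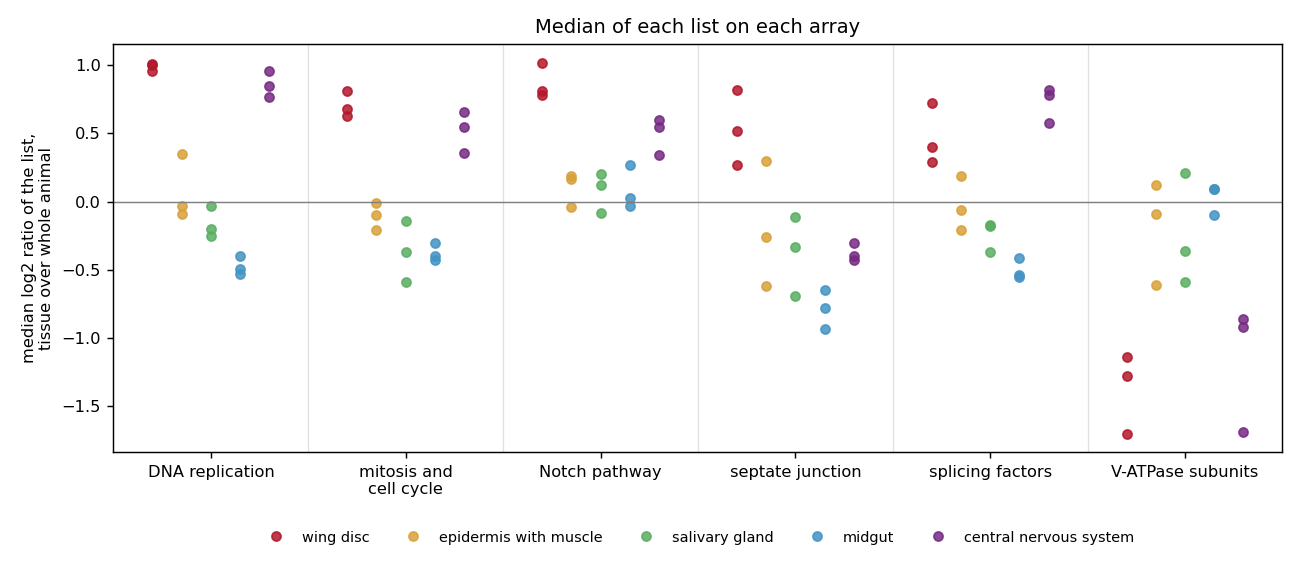
Median log2 ratio of tissue over whole animal (y axis) of 6 gene lists on each array (x axis); points are arrays, coloured by tissue with wing disc at the left of each list. For DNA replication the wing disc arrays lie at 0.96 to 1.01 beside central nervous system arrays at 0.77 to 0.96, and for V-ATPase subunits at -1.70 to -1.14.

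The lists of splicing factors, Polycomb and trithorax genes and ribosome assembly had members higher in the disc than the mean. In each list 0 members were higher than in the central nervous system, close to the 2.45% of all features that were. Splicing factor genes were higher than the mean in 10 of 21 cases, with 0 lower and a median of log2 0.64, and the leading gene was Sf3b3, of the U2 particle (log2 1.54, SE 0.212, adjusted p = 0.000134). Without wing disc replicate 3 the count was 6, and 4 with the midgut left out of the mean. Polycomb and trithorax genes were higher in 6 of 16 cases, with 0 lower and a median of log2 0.27, among them Snr1, a subunit of the Brahma complex, and Trl, the GAGA factor, by 1.08 each (SE 0.154 and 0.203), and 3 passed with the midgut left out of the mean. Genes of ribosome assembly were higher in 7 of 20 cases (4 of 16 without wing disc replicate 1) with 0 lower and a median of log2 0.50. The pseudouridine synthase gene Nop60B led them, with 2.19, 2.48 and 1.73 in wing disc and at most 1.56 elsewhere (log2 1.81, SE 0.213, adjusted p = 3.37e-05). Fib, encoding fibrillarin of the nucleolus, was higher by 1.52 (SE 0.182). Against the central nervous system, 1 splicing factor gene was lower in the disc, where 3.46% of all features were lower. Cytosolic ribosomal protein genes gave 0 of 28 in either direction against the mean, with a median of 0.20. Of these, 11 were higher in the disc than in midgut (14.3% of all features). Heparan sulfate genes gave 0 higher and 1 lower of 11. Respiratory chain and ATP synthase genes gave 1 higher and 1 lower of 48, with a median of -0.07. The shares of all features against the mean were 9.4% higher and 10.2% lower, with a median of -0.05. Heparan sulfate counts are near those shares, and respiratory chain and cytosolic ribosomal protein counts lie below them.

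Junction genes of the disc epithelium were counted by type. Of 4 innexin genes tested, 3 were higher: Inx3 as given above, ogre by 1.45 (SE 0.238, adjusted p = 0.000523) and Inx2 by 1.37 (SE 0.228, adjusted p = 0.000574). Inx2 had 0.94, 0.91 and 0.66 in wing disc and at most 0.52 elsewhere, and ogre had 0.80, 0.99 and 1.28 in wing disc, overlapping 0.42, 0.90 and 1.05 in the central nervous system. Inx7 had a different pattern, at -1.45, -1.52 and -1.61 in wing disc and 1.18, 1.74 and 0.93 in midgut. Against single tissues, 1 of the 4 was higher than in epidermis, 3 than in salivary gland, 3 than in midgut and 1 than in the central nervous system. In midgut 1 was higher than in the disc. Inx5, Inx6 and zpg had too few values to be tested. Septate junction genes, which seal insect epithelia, were higher in 9 of 14 cases with 0 lower and a median of log2 0.83, and in 5 with the midgut left out of the mean. Cont, a contactin cell adhesion gene, was higher by 1.96 (SE 0.393, adjusted p = 0.00239), the claudin genes sinu and pck by 1.56 (SE 0.304) and 1.14 (SE 0.181), and Tsf2, a transferrin of the junction, by 1.54 (SE 0.217). Of these, sinu stood at 0.26, 0.51 and 1.06 in wing disc and at most 0.09 on any other array, while pck overlapped the salivary gland. Against single tissues, 1 septate junction gene was higher than in epidermis, 5 than in salivary gland, 8 than in midgut and 6 than in the central nervous system, and of all features 5.03%, 11.4%, 14.3% and 2.45% were higher in those comparisons. The single gene of 14 against epidermis is near that background. Of 9 adherens junction and polarity genes, 0 passed against the mean in either direction, with a median of log2 0.32. Of all features, 9.4% were higher and 10.2% lower with a median of -0.05, so 0 of 9 is near those shares.

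Of 21 ecdysone response genes, 2 were higher and 2 lower, shares close to the 9.4% and 10.2% of all features, and the median was log2 -0.20. Besides ImpE2, ImpE3 was higher, with 1.73, 1.74 and 1.77 in wing disc and at most 1.56 elsewhere, on an epidermis array (log2 1.47, SE 0.217, adjusted p = 0.000354). Lower were shd, which encodes the enzyme that converts ecdysone to its active form (log2 -1.58, SE 0.531, adjusted p = 0.0473), and tai, a co-activator of the ecdysone receptor (log2 -0.57, SE 0.158, adjusted p = 0.0184). Without single wing disc arrays the shd call was lost each time (adjusted p = 0.0899 to 0.139), as it was without either epidermis replicate 2 or 3, salivary gland replicate 1 or 2, midgut replicate 1 or 2, or central nervous system replicate 2 (0.0506 to 0.0635), and the tai call was lost without wing disc replicate 1 (0.0604) or 3 (0.0778). In midgut shd averaged 0.62 ± 0.83, against -3.22 ± 0.249 in wing disc and -2.03 to -3.05 in the other tissues.

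Among the lowest genes of the disc, 24 features (0.285%) were at least log2 1 below each of the other 4 tissues with all 4 tests passed, and 20 of them had a gene name. On 19 of the 20 the disc arrays lay below every other array, as for 176 of all features tested (2.09%). Here too the lack of overlap largely follows from how the genes were chosen. The count of 24 features was less steady than the count of high features, with 40 of 6711 tested without wing disc replicate 1 and 13 of 8145 without wing disc replicate 3. Carbonic anhydrases, which interconvert carbon dioxide and bicarbonate, supplied 2 of the 20, and they were also the 2 of 8 tested genes of that family that passed. CAH7 had -3.57, -3.86 and -3.65 in wing disc, against -1.92 ± 0.09 in salivary gland, its nearest tissue, and means from -0.16 to 0.86 in the other 3 (difference from the mean of 4 log2 -3.52, SE 0.329, adjusted p = 7.61e-06). CAH1 had -2.62, -2.47 and -3.04 in wing disc and -1.89 or more on all other arrays (log2 -2.14, SE 0.18, adjusted p = 3.25e-06). The other 6 members of the family tested had differences that did not pass, and 8 of 16 had too few values.

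Several enzyme and transporter genes were below each tissue as well. Cyp12e1, a cytochrome P450 gene of the mitochondrial family, had -3.08, -3.38 and -2.25 in wing disc and stayed between -0.56 and 1.27 elsewhere (log2 -2.97, SE 0.271, adjusted p = 6.49e-06). AcCoAS, which encodes acetyl-CoA synthetase, was steady at -3.28, -3.13 and -3.09 in wing disc and -1.57 or more elsewhere (log2 -2.21, SE 0.199). Gs1, a glutamine synthetase gene, had -2.96, -3.02 and -3.13 in wing disc, against -1.98 as the lowest value elsewhere (log2 -2.33, SE 0.266). Its relative Gs2, on the list of neuron and glia markers because glia express it, was lower too (log2 -1.98, SE 0.308), but not past the test against salivary gland or central nervous system. Further genes below each tissue were the nucleotidase gene Nt5b (log2 -2.33 from the mean, SE 0.224), the organic cation transporter gene Orct (-2.31, SE 0.268), the transporter genes ine (-1.94, SE 0.268) and hoe2 (-2.95, SE 0.292), rgr (-1.69, SE 0.264), CG13907 (-2.11, SE 0.323) and CG15547 (-1.74, SE 0.231). Buffy, of the Bcl-2 family of cell death regulators, was measured on 2 disc arrays, at -0.40 and -1.25, and at 0.05 or more on every other array (log2 -1.92, SE 0.264, adjusted p = 0.000158). In the apoptosis list, Buffy and grnd, which encodes a receptor of the fly TNF ligand Eiger (log2 0.68, SE 0.207, adjusted p = 0.033), were the 1 lower and 1 higher gene of 12, against 10.2% lower and 9.4% higher of all features.

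**Figure D5:**
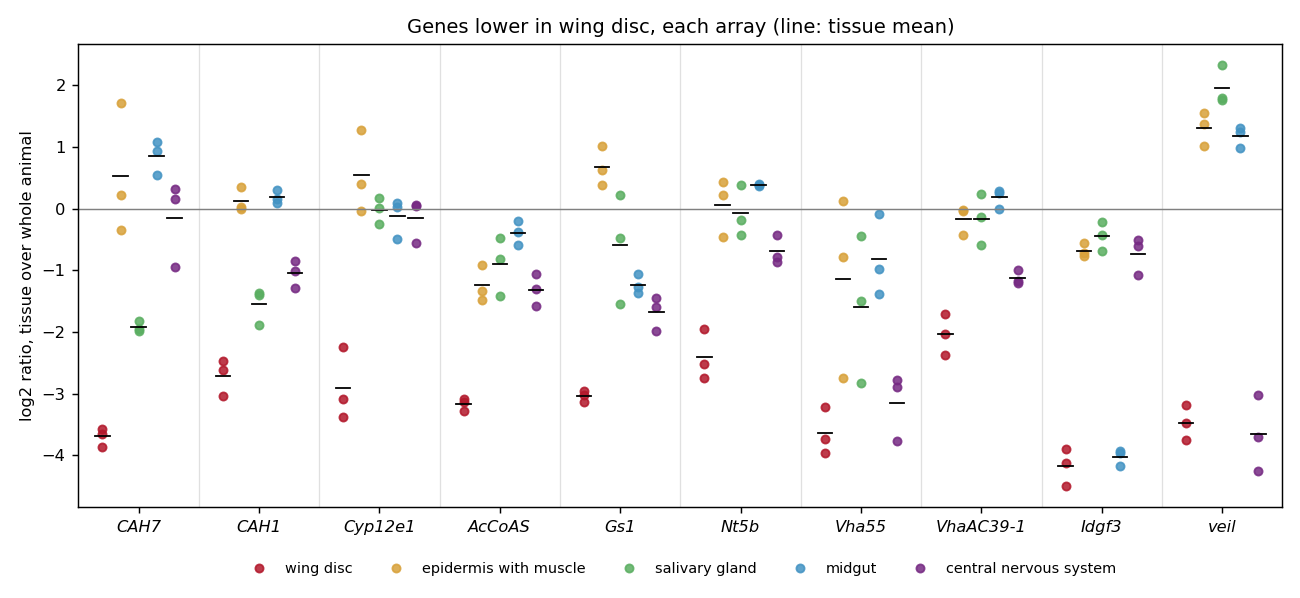
Log2 ratios of tissue over whole animal (y axis) for 10 genes lower in wing disc (x axis); points are arrays, coloured by tissue with wing disc at the left of each gene, and lines are tissue means. The disc arrays lie below all others for the first 6 genes and for VhaAC39-1, share their range with the central nervous system for Vha55 and veil, and share it with midgut for Idgf3.

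Genes for subunits of the V-ATPase, the proton pump of organelles and of some apical membranes, were lower in 13 of 21 cases and higher in 0, with a median of log2 -1.05. VhaAC39-1 had -2.03, -2.37 and -1.71 in wing disc and -1.20 or more elsewhere, and was lower in all 4 pairs (difference from the mean log2 -1.72, SE 0.194, adjusted p = 2.46e-05). Vha55 had the greatest difference, log2 -1.97 (SE 0.505, adjusted p = 0.0117, but 0.0553 without wing disc replicate 1 and 0.05 without replicate 2), with -3.96, -3.73 and -3.22 in wing disc and -3.76, -2.89 and -2.78 in the central nervous system. Vha36-1 and Vha14-1 were lower by differences of -1.48 (SE 0.225) and -1.64 (SE 0.242), and VhaAC45 by -1.77 (SE 0.32). Vha100-5 (log2 -1.40, SE 0.253) was of another kind, at -3.35, -4.09 and -3.86 in wing disc, as low in epidermis and nervous system, and at 0.74, 0.96 and 0.74 in midgut. Counted against single tissues, 11 V-ATPase genes were lower in the disc than in epidermis (8.14% of all features), 11 than in salivary gland (9.18%), 13 than in midgut (14.8%) and 3 than in the central nervous system (3.46%). Their median on each array ran from -1.70 to -1.14 in wing disc, against -1.69 to -0.86 in central nervous system samples, and was -0.61 or more on the other arrays.

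The imaginal disc growth factors, chitinase-like proteins named for their effect on cultured disc cells, were low in the disc itself. Of 6 genes, 4 were lower than the mean of the other 4 tissues (2 with arrays scaled to a common spread) and 0 higher, and all 6 were below whole animal past the test, where 25.5% of all features were lower and 20.1% higher. The list's median was below whole animal in the other tissues too, at -3.25 to -0.42 on their arrays. Against midgut 1 of the 6 was higher in the disc and 0 lower, with a median of log2 0.15. Idgf3 had -4.50, -4.12 and -3.90 in wing disc and -4.18, -3.97 and -3.93 in midgut, against tissue means from -0.73 to -0.44 in the other 3 (difference from the mean of 4 log2 -2.71, SE 0.179, adjusted p = 2.6e-07). Idgf2 and Idgf6 were lower by differences of -1.95 (SE 0.219) and -1.49 (SE 0.221), neither passing against midgut, and Idgf1 by -0.93 (SE 0.305, adjusted p = 0.0438). The Idgf1 call was lost without wing disc replicate 3, epidermis replicate 2, salivary gland replicate 1 or 2, midgut replicate 2 or 3, or central nervous system replicate 3 (adjusted p = 0.051 to 0.0598). With epidermis left out of the mean the Idgf1 difference was log2 -0.364 (adjusted p = 0.465), and with salivary gland left out -0.751 (0.12). Its call was also lost with arrays scaled to a common spread (0.301), centred on features measured on all 15 arrays (0.0717) or with a replicate block (0.0706). Idgf5 (log2 -0.79, adjusted p = 0.0719, and 0.0191 without salivary gland replicate 3) and Idgf4 (0.02, adjusted p = 0.952) did not pass. Idgf4 was the highest of them in the disc relative to whole animal, at -1.0, -1.51 and -1.16.

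The remaining genes with the lowest differences were those of which 1 or more other tissues held a high level. The nucleotidase gene veil had -3.48, -3.75 and -3.19 in wing disc and -3.02, -4.25 and -3.70 in the central nervous system, while the other 3 tissues averaged 1.31 ± 0.277, 1.96 ± 0.321 and 1.18 ± 0.171 (epidermis, salivary gland and midgut). Its difference from the mean was log2 -3.68 (SE 0.23, adjusted p = 1.78e-07), and from the central nervous system 0.18 (adjusted p = 0.819). Alp1, an alkaline phosphatase gene, and Neurochondrin were low in the disc and highest in epidermis, at means of 2.34 ± 0.782 and 2.28 ± 0.54 there, against -3.76 ± 0.322 and -3.79 ± 0.413 in wing disc. Fatp3, of the fatty acid transport family, and Eig71Ee, an ecdysone-induced gene, were highest in midgut (2.04 ± 0.766) and salivary gland (5.15 ± 0.882), against -3.20 ± 0.578 and -3.86 ± 0.136 in wing disc. CG5335 and Sclp, at -3.25 ± 0.359 and -1.99 ± 0.882 in wing disc, did not differ past the test from the central nervous system.

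Markers of other cells were counted because a dissected disc can hold them. Against the mean of the other 4 tissues, 10.2% of all features were lower and 9.4% higher. Of 8 fat body markers, 4 were lower than that mean and 0 higher, and their median on the disc arrays was -2.66, -2.59 and -3.06. Lsp2, a storage protein of the fat body, stood at -4.68, -4.47 and -4.59 in wing disc, against -2.41 ± 0.243 in epidermis, -0.03 ± 0.503 in salivary gland, -4.24 ± 1.108 in midgut and -4.28 ± 0.462 in central nervous system. Against the central nervous system, whose arrays had fat body medians of -3.66 to -3.18, 1 marker was higher in the disc, Pepck1, an enzyme gene of gluconeogenesis (log2 1.22, adjusted p = 0.0104), and the median difference was log2 0.15. Muscle markers were lower in 6 of 15 cases against the mean and in 14 of 15 against epidermis with muscle (8.14% of all features). Their medians were -2.07, -2.48 and -2.46 on the disc arrays. Of 12 hemocyte and 12 basement membrane genes, 0 passed in either direction against the mean, which is near the shares of all features. Hemocyte medians were -1.09, -0.87 and -0.68 on disc arrays, against -1.62 to -0.31 on the other arrays. Salivary gland markers (8 of 8 lower than in salivary gland) and midgut enzyme genes (36 of 38 lower than in midgut) were below the tissues they mark. Of all features, 9.18% and 14.8% were lower in those comparisons. Of neuroblast markers, 4 of 8 were lower in the disc than in the central nervous system and 0 higher, and of neuron and glia markers 4 of 13 and 0. Of all features, 3.46% were lower and 2.45% higher in that comparison, so the counts of 0 higher are near the share of all features. The neuroblast gene insc, which orients asymmetric division, was also below the mean of the 4 tissues (log2 -0.80, SE 0.21, adjusted p = 0.0138, but 0.0892 without wing disc replicate 3).

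Some markers of 3 further cell types were higher in the disc, where 9.4% of all features were higher and 10.2% lower than the mean of the other 4 tissues. Of 8 myoblast markers tested, 2 were higher and 0 lower, with a median of log2 -0.02. The fusion gene blow had 1.61, 1.25 and 1.51 in wing disc and at most 0.29 elsewhere (log2 1.72, SE 0.164, adjusted p = 1.06e-05). The gene hoip, also on the list of ribosome assembly, was higher by 1.79 (SE 0.229). List medians were 0.48, 0.51 and 0.14 on disc arrays, against -0.41 to 0.59 on the other arrays, and the part of myoblasts in the differences above was not tested. Among tracheal markers 1 of 6 was higher, verm, a chitin-binding deacetylase gene (log2 1.01, SE 0.193, adjusted p = 0.00167), whose 5 rows differed by up to log2 3.87 and which was lower in the disc than in epidermis (log2 -1.16, adjusted p = 0.0039). Untested tracheal markers, named after their values were seen, include the nuclear receptor genes knrl, with 2.34, 1.79 and 1.57 in wing disc and at most 0.71 on 5 other arrays, and kni, with 1.01, 0.86 and 0.92 in wing disc and at most 0.34 on 9 other arrays. The other untested ones had fewer disc values. For bnl the disc read 0.57 and a salivary gland array 0.75, and for dysf the disc read 0.23 and 0.44 and a midgut array 1.05. The vvl value of the disc was -0.06, against at most -0.17 elsewhere. The tested tracheal markers had a median difference of log2 0.01. Among epidermis and cuticle markers, 1 of 14 was higher, which is near the share of all features, and 3 were lower. The higher one was knk, needed for chitin organisation, with 1.11 and 1.40 on 2 disc arrays, against 1.77, 0.71 and 1.18 in epidermis and -0.28 or less elsewhere (log2 2.06, SE 0.409, adjusted p = 0.00254). Compared with epidermis, the tissue they mark, 6 of the 14 were lower in the disc and 0 higher, with a median of log2 -0.76. The shares of all features there were 8.14% lower and 5.03% higher.

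Against whole animal itself, 3843 features passed the test in wing disc (45.6%), 1692 higher and 2151 lower. Without wing disc replicate 2 the count was 2557 of 6790 tested. The share higher was 44%, against 59.5% with arrays centred on features measured on all 15 arrays and 36.1% among those features alone. These ratios hold any dye effect of single genes and leave out the spread of the whole animal samples. Of the 5 named genes highest against whole animal, 3 were heat shock genes. Hsp26 had 3.79, 3.69 and 3.03 in wing disc and between 2.30 and 4.41 on the other arrays, and Hsp22 had 3.41, 3.78 and 2.98 in wing disc and between 2.28 and 4.37. Both were thus far above whole animal in every dissected tissue and did not differ past the test between wing disc and any other tissue, whereas Hsp68, at 3.0, 2.96 and 2.49 in wing disc, was lower than in epidermis (log2 -1.14, SE 0.328, adjusted p = 0.0298) and salivary gland (log2 -1.10, SE 0.328, adjusted p = 0.0252). The lowest against whole animal, besides Lsp2, were a feature annotated as asRNA:CR11538 (-5.28 ± 0.983), CG43896 (-5.07 ± 1.244), CG12116 (-4.72 ± 0.477) and CG7252 (-4.57 ± 1.083), none of which was below all 4 other tissues past the test.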

How the data were processed

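RNA of 5 tissues was amplified by in vitro transcription and hybridised with whole animal RNA on 15 2-colour arrays, per the labels' protocols. The authors deposited 1 table of log2 ratios, tissue (Cy5) over whole animal (Cy3); the scale was read from the values, and the direction from the dyes in the labels. Not given in the sources used here: scanner, background correction, normalization, reason for empty cells and genome build. No coordinates or sequences are therefore printed. Signal over background was not used here, and precision is limited by how many arrays there are.

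Of 20000 rows, 14051 had values: 10817 had 1 gene in the platform annotation (10813 matched a current gene record), 227 several and 3007 none. Arrays were centred on their median and rows of a gene averaged. Of 793 genes with several rows, verm, rgr, tai, Hsp26 and VhaAC45 among those named had rows over log2 1 apart. Features measured on at least 2 arrays in every tissue were fitted with limma 3.58.1 (R 4.3.3), with 1 mean per tissue and empirical Bayes moderation (prior degrees of freedom 5.63, prior SD 0.341 log2), and were adjusted by Benjamini-Hochberg within a comparison. P-values measure the spread between the independent samples of a tissue. The fit was tested on simulated data. Tables and plots used python 3.11.15, pandas 2.3.3, numpy 2.4.6 and matplotlib 3.10.9.

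Groups and replicate numbers came from the sample titles. The comparisons, gene lists and rule for named genes were chosen with earlier results of these data known. The rule took the 12 highest and 12 lowest genes against the mean of the other 4 tissues, the 12 with the greatest smallest difference above or below each tissue, the 5 highest and 5 lowest against whole animal, up to 6 called members of each list (3 others where none passed), and all innexin, Idgf, Hedgehog and Hox genes. Alternatives covered centring, scaling, filters, rows, variance model, array weights, a replicate block, minimum sizes, each array and each tissue left out.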

Additional observations from a re-analysis of the deposited data

Results flagged for a closer look

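Some features stood on opposite sides of whole animal in wing disc and in another tissue, with both tissues past the limma test against whole animal and the difference between the 2 tissues past the test as well. Against epidermis with muscle, 21 features were above whole animal in wing disc and below it in epidermis, and 191 were below it in wing disc and above it in epidermis. Against salivary gland, 240 were above in the disc and below in the gland, and 138 the reverse. Against midgut, 321 were above in the disc and below in midgut, and 418 the reverse. Against the central nervous system, 36 were above in the disc and below there, and 51 the reverse. These counts are out of 8432 features and share the wing disc arrays and the whole animal samples. The calls against whole animal on which they rest moved with centring. Wing disc had 1692 features higher and 2151 lower in the main fit. Centring on features measured on all 15 arrays gave 2457 higher and 1672 lower. The counts on opposite sides were not repeated with that centring.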

How the results depend on the processing

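Of 105 named genes past the test against the mean of the other 4 tissues, 85 passed under every alternative run on them, and 0 changed sign. The other 20 lost the call under at least 1 alternative: Brd, CG12116, CG7252, Eig71Ee, Idgf1, Idgf6, Lsp2, Vha100-5, Vha55, Wbp2, cv, ds, grnd, insc, put, rasp, salr, shd, spi and tai. Calls were gained under at least 1 by Hsp22, Hsp68, Idgf5, CG43896 and asRNA:CR11538. Counts moved with the settings as follows, and the cause was not tested. With array weights, 3914 features differed from the mean of the other 4 tissues, 3756 from epidermis, 2913 from salivary gland, 4322 from midgut, 1384 from the central nervous system and 5808 from whole animal, and 53 were below each tissue. A minimum difference of log2 1, by construction, left 856 features against the mean and 1806 against whole animal. Features below each tissue numbered 9 with arrays scaled to a common spread and 38 with no minimum pair difference. Leaving out each array in turn gave 1012 to 1761 features against the mean, 734 to 1350 against epidermis, 1210 to 1830 against salivary gland, 1778 to 2496 against midgut, 302 to 535 against the central nervous system, 2557 to 3938 against whole animal, 35 to 48 above each tissue and 13 to 40 below each. Those fits tested 6541 to 8294 features, against 8432 in the main fit, so their counts do not share 1 base. Among lists, array weights gave 15 ribosome biogenesis, 10 selector and 7 BMP genes higher and 4 carbonic anhydrase genes lower. The same setting gave 2 Notch, 1 Hedgehog, 1 septate junction and 1 mitosis and cell cycle gene lower, where the main fit had 0 in each.

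Some differences that had not passed the test changed sign. Scaling gave -0.264 for Hsp26 and -0.0754 for Hsp22, whereas array weights gave 0.83 for Hsp22 (adjusted p = 0.00858). Hsp26 was at -0.0303 with midgut left out of the mean, and at -0.0014 to 0.38 with single arrays left out. Idgf4 was at -0.234 with array weights, -0.0802 with salivary gland and -0.272 with midgut left out of the mean, and at -0.0895 to 0.166 with single arrays left out. Inx7 was at 0.855 with midgut left out of the mean and at -0.145 to 0.101 with single arrays left out. With the replicate number as a block, 1640 features differed from the mean, 1086 from epidermis, 1724 from salivary gland, 2464 from midgut, 469 from the central nervous system and 3862 from whole animal, with 46 above and 21 below each tissue. Correlations of deviations between wing disc arrays and same-numbered arrays of the other tissues ran from -0.433 to 0.346. Arrays with different numbers were not compared, so whether the numbers pair the samples was not tested.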

Other observations

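The filter on missing values left 4696 features untested. Of these, 698 were measured on all 3 wing disc arrays, and 480 of the 698 had fewer than 2 values in the central nervous system. On 21 of the 698, all 3 disc arrays were at least log2 1 above whole animal, and on 3 they were at least log2 1 below. Genes among the 21, named after their values were seen, include vg, a selector gene of the wing, with 1.55, 1.87 and 1.69 in wing disc against 1.16 and -0.31 on 2 epidermis arrays and at most 0.7 on 6 further arrays. The transcription factor gene Sox15 had 2.05, 2.06 and 2.42 in wing disc, against a mean of 0.23 over 3 salivary gland arrays and 0.09 over 3 midgut arrays. The planar polarity gene dgo had 1.69, 1.89 and 1.43 in wing disc, against means of 0.81 in epidermis, -0.39 in salivary gland and -0.46 in midgut, and Tom, of the Bearded family, had 1.28, 1.09 and 1.17 in wing disc, against 0.17 in epidermis. Other genes of the 21 were higher in another tissue than in the disc. CG18537 averaged 2.0 in wing disc and 2.36 over 2 central nervous system arrays. CG3349, Or85b, CG12590 and Ttc26 averaged 1.75, 1.41, 1.25 and 1.23 in wing disc, against 2.49, 2.26, 1.66 and 1.3 on 1 epidermis array each. None of the genes named here was tested.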
